A study of Mus musculus with 2 samples.

Results

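C/EBP and myeloid fate transcription factors are the proteins that direct a blood progenitor toward the granulocyte or the monocyte branch. The group described here was chosen by gene symbol and holds 10 of the 32285 genes in the matrices: Spi1, Cebpa, Cebpb, Cebpd, Cebpe, Gfi1, Irf8, Irf5, Klf4 and Myb. All 10 symbols were found, each with 1 gene ID, and all 10 had UMIs (unique molecular identifiers, each standing for 1 captured RNA molecule) in both libraries. They were measured by single-cell RNA sequencing of mouse bone marrow with the 10x Genomics 3′ kit. The KO library came from Phf6 knockout cells and the WT library from wild-type cells. Phf6 encodes a chromatin protein that is mutated in human leukaemia. Cells of both genotypes carried a viral vector for the RUNX1-S291fs mutant and GFP, and only GFP+ cells were transplanted. After 8 weeks GFP+ cells without lineage markers were sorted from the marrow of the recipients. Control cells therefore carried the RUNX1 mutant too, and a library without it was not analysed here. Strain, age, sex, the number of recipient animals per library and the kind of knockout are not stated by the labels. With 1 library per genotype there were no replicates, so the intervals below cover counting error only, no p-value is given, and differences between animals cannot be told apart from differences between genotypes.

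PU.1, the product of Spi1, is an ETS factor that myeloid and B lymphoid cells need, and its dose biases progenitors between fates. C/EBPα, the product of Cebpa, opens the granulocyte-monocyte programme, and C/EBPε and GFI1 then drive granule formation and repress monocyte genes. IRF8 and KLF4 promote monocyte and dendritic fates, IRF5 acts in the innate immune signalling of mature monocytes, and MYB keeps progenitors immature and dividing.

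After filtering, 4709 KO and 4478 WT cells remained, with 110416265 and 118834279 UMIs in all and medians of 21428 and 24800 UMIs per cell. The libraries shared 10 cell barcodes, of which 7 were among the cells kept. Phf6 was at 20.7 CPM (the gene's UMIs summed over cells, scaled to a total of 1000000 UMIs) in KO cells and 41.7 CPM in WT cells. A 3′ count can come from RNA of a disrupted gene, so this value checks the labels only in direction. Cells were clustered without the 10 member genes, and clusters were named from marker genes. HSC/MPP-like cells (stem and multipotent progenitor cells) were 525 KO and 267 WT cells of cluster 3, led by Mecom, Nxph1 and Hlf and also by the interferon-inducible gene Iigp1. Neutrophil progenitor-like cells, clusters 2 and 14, were 384 KO and 595 WT cells with Camp, S100a8, S100a9 and Elane among their leading genes. Monocyte-like cells, clusters 4, 9 and 10, were 940 KO and 742 WT cells with F13a1, Fn1 and Lgals3; cluster 9 was also led by the histone genes of dividing cells. Cluster 5, with Mpo in front, was an early myeloid cluster that met no naming rule, and clusters 0, 1, 6 and 8 were unnamed progenitor clusters. Clusters 15 (leading genes Cd74, H2-Aa and Klrd1) and 16 (Adgre4, Fcgr4 and Pparg) matched the dendritic markers best but were also led by genes of lymphoid cells (Klrd1) or mature monocytes (Adgre4, Fcgr4), so they are given by number. Levels are compared between cells for 1 gene at a time and never between genes, because a 3′ count depends on the gene. Where groups of cells are put in order, only those with at least 50 cells in each library count. This leaves out, among others, the eosinophil class (2 KO and 23 WT cells).

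The promoters of the member that differed most between the genotypes in stem-like cells, Irf8, and of the member with the highest ratio of neutrophil over monocyte level, Gfi1, are shown to place the levels that follow. Each window runs from 250 bases before to 50 bases after the first start site that RefSeq gives, read 5′ to 3′ on the gene's strand. Promoters were found for 7 members, 9 windows in all; Spi1, Cebpd and Cebpe had no entry.
Irf8, chr8:120736108-120736407, plus strand, GRCm38.p6: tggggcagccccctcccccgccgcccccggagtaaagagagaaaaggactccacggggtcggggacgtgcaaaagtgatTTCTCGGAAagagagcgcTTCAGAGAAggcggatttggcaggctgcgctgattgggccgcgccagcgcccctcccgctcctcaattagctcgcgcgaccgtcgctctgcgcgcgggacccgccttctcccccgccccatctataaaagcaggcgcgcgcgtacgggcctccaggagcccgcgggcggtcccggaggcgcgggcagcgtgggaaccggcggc
Gfi1, chr5:107725756-107726055, minus strand, GRCm38.p6: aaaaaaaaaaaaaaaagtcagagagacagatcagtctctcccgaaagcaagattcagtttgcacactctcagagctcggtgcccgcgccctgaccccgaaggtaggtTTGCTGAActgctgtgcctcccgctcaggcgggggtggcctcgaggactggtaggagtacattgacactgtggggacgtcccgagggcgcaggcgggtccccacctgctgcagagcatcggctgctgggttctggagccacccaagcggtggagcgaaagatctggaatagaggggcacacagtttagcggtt
The capitals in the Irf8 window mark both matches to TTCNNNGAA, the palindrome that STAT factors bind, TTCTCGGAA from base -171 to -163 and TTCAGAGAA from base -153 to -145 relative to the start. The first overlaps a match to AAATCNC, the GFI1 motif, on the minus strand from base -176 to -170. The capitals in the Gfi1 window mark TTGCTGAA, a match to the C/EBP motif TTGCNNAA from base -143 to -136. Searched on both strands, TTCNNNGAA was in 8.3% of the 32851 promoters of this length, AAATCNC in 11.7% and TTGCNNAA in 10.8%, so each is a common match. The second Irf8 window held 1 match to the MYB motif TAACNG, found in 23.3% of promoters. No match to GAGGAAGT (PU.1, 3.2% of promoters), the IRF motif (3.44%) or TGTGGT (RUNX, 16.8%) was found in the 9 windows, which says nothing about where those factors bind.

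Spi1 (ENSMUSG00000002111, chr2:91082390-91115756, plus strand; gene positions are from GENCODE M21 on GRCm38) was highest in cluster 16 and the monocyte-like cells. It was at 338 CPM in KO and 345 CPM in WT monocyte-like cells, at 253 and 255 CPM in KO and WT neutrophil progenitor-like cells, and at 114 CPM in HSC/MPP-like cells of both genotypes. Erythroid cells had 6.69 CPM in KO and 8.62 CPM in WT. In KO the neutrophil value overlapped that of cluster 5, at 259 CPM, within counting error. Over the 19 clusters with at least 50 cells in each library, the KO over WT log2 ratio of Spi1 had a median of -0.01 and passed 1.5-fold in 1 cluster, the low-UMI megakaryocyte-like cluster 13. Genes on the opposite strand overlap Cebpa (Gm45091), Cebpb (Tmem189), Cebpd (Spidr), Gfi1 (A430072P03Rik), Irf5 (Tnpo3) and Myb (Gm26577). No source used here says whether the authors' counting used strand, so reads of these partners could be in the values.

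Cebpa (ENSMUSG00000034957, chr7:35119293-35121928, plus strand) was highest outside both branches. Basophil or mast cells had 196 CPM in KO and 218 CPM in WT, and cluster 5 came next with 56.4 and 57.0 CPM. Monocyte-like cells had 44.2 CPM in KO and 50.2 CPM in WT, and neutrophil progenitor-like cells 20.3 and 26.1 CPM. Both branches were thus lower in KO by less than 1.5-fold, by log2 ratios of -0.19 (95% interval -0.30 to -0.07) and -0.36 (-0.58 to -0.14). HSC/MPP-like cells had 7.75 CPM in KO and 8.35 CPM in WT, above the 0.231 CPM in KO and 1.21 CPM in WT of erythroid cells.

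Cebpb and Cebpd encode the C/EBP proteins that act in emergency granulopoiesis and in inflammatory gene expression. Cebpb (ENSMUSG00000056501, chr2:167688915-167690418, plus strand) was highest in cluster 16, at 576 CPM in KO and 573 CPM in WT, then in monocyte-like cells at 308 and 268 CPM, then in neutrophil progenitor-like cells at 131 and 108 CPM. Cebpd (ENSMUSG00000071637, chr16:15887286-15891031, plus strand) did not separate the branches in KO, where neutrophil progenitor-like cells had 272 CPM and monocyte-like cells 270.0 CPM. In WT these values were 210 and 228 CPM and their intervals did not overlap. HSC/MPP-like cells had little of either gene, 13.8 CPM of Cebpb in KO and 14.5 CPM in WT, and 18.5 and 14.1 CPM of Cebpd. At 5000 UMIs per cell, 7.43% of KO and 4.56% of WT HSC/MPP-like cells had a Cebpd UMI, and 5.71% and 10.7% had a Cebpb UMI. At 10000 UMIs the shares were 14.7% in KO and 13.3% in WT for Cebpd and 11.9% and 14.1% for Cebpb, with overlapping intervals. The Cebpb share in megakaryocyte-like cells was 3.59% in KO and 5.88% in WT at 5000 UMIs.

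Both genes were above WT in both branches, except that the Cebpb ratio in monocyte-like cells was -0.06 when each library was clustered on its own. The log2 ratio of Cebpd was 0.38 (0.31 to 0.44) in neutrophil progenitor-like cells, 0.25 (0.19 to 0.30) in monocyte-like cells and 0.39 (-0.02 to 0.81) in HSC/MPP-like cells. It was above 0 in 13 of 17 clusters at 5 CPM or more, with an interval above 0 in 8 and below 0 in 0. Cluster 14 had the highest ratio, 0.80, the 1 cluster past 1.5-fold higher. Past 1.5-fold lower were 2 clusters of few UMIs, cluster 13 with 9 in KO and 18 in WT (-1.01, -2.35 to 0.22) and the B cell cluster 18 with 1 in KO and 3 in WT (-1.18, -6.89 to 2.46). The Cebpb ratio was 0.28 (0.19 to 0.37) in neutrophil progenitor-like cells, 0.20 (0.15 to 0.25) in monocyte-like cells and -0.07 (-0.50 to 0.37) in HSC/MPP-like cells. For Cebpb 12 of 17 clusters at 5 CPM or more were above 0, with an interval above 0 in 6 and below 0 in 3. Past 1.5-fold, 0 clusters were higher and 2 lower, the lowest ratio being -2.31 in cluster 13. Megakaryocyte-like cells as a whole held 43 Cebpb UMIs in 462 KO cells and 145 in 481 WT cells. Cluster 0 held 29 in 435 KO cells and 67 in 472 WT cells.

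**Figure D1:**
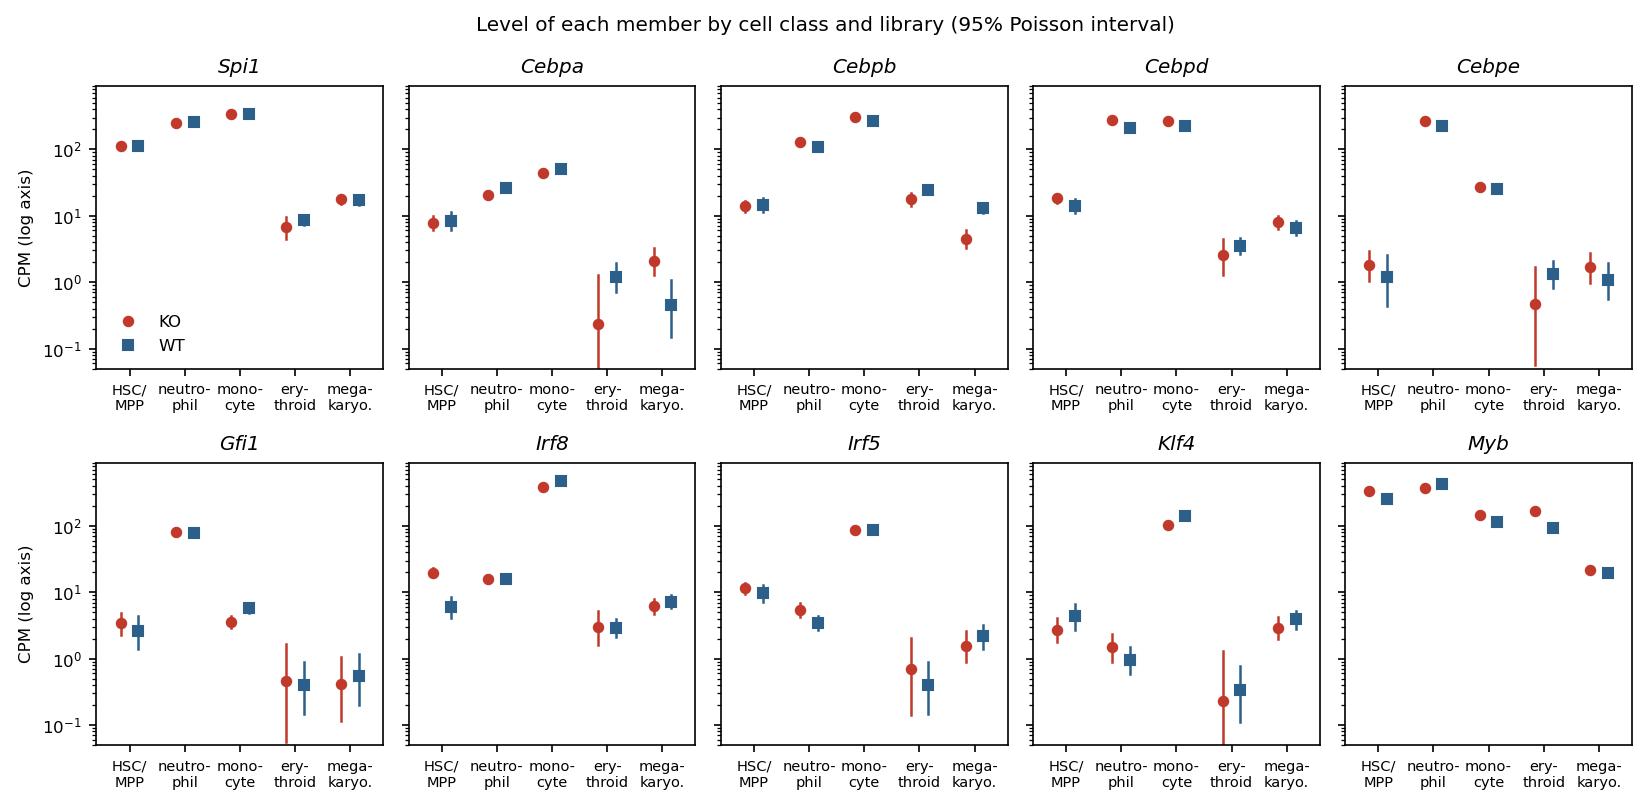
Level of each member in 5 cell classes, in CPM on a log axis, with circles for KO, squares for WT and bars for the exact 95% Poisson interval (counting error only). Cebpe and Gfi1 peak in neutrophil progenitor-like cells, Irf8, Irf5 and Klf4 in monocyte-like cells, and Irf8 in HSC/MPP-like cells lies at 19.7 CPM in KO and 5.97 CPM in WT.

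Cebpe and Gfi1 were the granulocyte members. Cebpe (ENSMUSG00000052435, chr14:54710360-54712174, minus strand) is needed for secondary granules, and Gfi1 (ENSMUSG00000029275, chr5:107716657-107726036, minus strand) is a repressor needed for neutrophil formation. Neutrophil progenitor-like cells had 267 CPM of Cebpe in KO and 226 CPM in WT. Among groups with at least 50 cells in each library, cluster 5 followed with 86.5 and 79.2 CPM, and monocyte-like cells with 27.1 and 25.2 CPM. The small eosinophil class also held much Cebpe, 28 UMIs in 2 KO cells and 308 UMIs in 23 WT cells. In WT that was 4.69% of the library's Cebpe UMIs in 0.514% of its cells. The Cebpe ratio was 0.24 (0.17 to 0.30) in neutrophil progenitor-like cells, and it was 0.23 in cluster 2 and 0.45 in cluster 14. At 5000 UMIs per cell 70.2% of KO and 65.1% of WT neutrophil progenitor-like cells had a Cebpe UMI, against 0.513% and 0.735% of megakaryocyte-like cells.

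Gfi1 was at 80.8 CPM in KO and 78.5 CPM in WT neutrophil progenitor-like cells, a ratio of 0.04 (-0.07 to 0.16). Cluster 5 had 22.3 and 20.4 CPM. Monocyte-like cells held 100 Gfi1 UMIs in 940 KO cells and 127 in 742 WT cells, or 3.62 and 5.84 CPM. Outside the neutrophil branch both genes were lower in KO in some progenitor clusters. In cluster 1 (Cpa3, Flt3) Gfi1 was at 4.49 CPM in KO and 9.48 CPM in WT, a log2 ratio of -1.08 (-1.71 to -0.48). Cebpe there was at 15.7 and 23.7 CPM, a ratio of -0.59 (-0.94 to -0.25). In cluster 6 (Tox, Cpa3) Cebpe had 20 UMIs in 413 KO cells and 52 UMIs in 202 WT cells, a ratio of -2.17 (-2.99 to -1.40). In WT 3 cells held 36.5% of those UMIs, and the share of cells with a UMI was 4.12% in KO and 12.9% in WT.

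Irf8, Irf5 and Klf4 were the monocyte members. Irf8 (ENSMUSG00000041515, chr8:120736358-120756694, plus strand), which monocyte and dendritic progenitors need, was highest in cluster 15, at 904 CPM in KO and 1091 CPM in WT. Monocyte-like cells followed with 390 CPM in KO (10765 UMIs) and 482 CPM in WT (10478 UMIs), and cluster 5 with 193 and 192 CPM. Neutrophil progenitor-like cells had 15.9 CPM in KO and 15.7 CPM in WT. Irf5 (ENSMUSG00000029771, chr6:29526625-29541871, plus strand) had 87.2 CPM in KO and 87.4 CPM in WT monocyte-like cells, and 131 and 149 CPM in cluster 16. In neutrophil progenitor-like cells it had 5.38 and 3.47 CPM. Irf5 was not confined to monocyte-like cells. The B cell cluster 18, on 19 UMIs in KO and 34 in WT, had 58.9 CPM (35.45 to 91.95) and 79.4 CPM (54.97 to 110.9). Both intervals overlapped those of monocyte-like cells. Cluster 15 had 67.4 CPM of Irf5 in KO and 83.6 CPM in WT, overlapping monocyte-like cells in WT only. Klf4 (ENSMUSG00000003032, chr4:55527143-55532466, minus strand) was at 216 CPM in KO and 369 CPM in WT cells of cluster 16, and at 104 and 140 CPM in monocyte-like cells. In neutrophil progenitor-like cells 19 UMIs in each library gave 1.48 CPM in KO and 0.970 CPM in WT.

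Myb (ENSMUSG00000019982, chr10:21124935-21160984, minus strand) was spread across progenitors. In KO it was highest in cluster 5 (387 CPM) and neutrophil progenitor-like cells (375 CPM), whose intervals overlapped, followed by cluster 6 (348 CPM), HSC/MPP-like cells (338 CPM) and cluster 1 (332 CPM). In WT neutrophil progenitor-like cells stood first at 430.5 CPM, ahead of cluster 5 (362 CPM), cluster 6 (331 CPM), cluster 1 (285 CPM) and HSC/MPP-like cells (255 CPM). Monocyte-like cells had 146 CPM in KO and 114 CPM in WT. Cluster 16 had 0 UMIs in 86 KO cells, which allows up to 5.31 CPM, and 6 UMIs in 66 WT cells.

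The contrast between the branches was then taken within each library, as the log2 ratio of neutrophil progenitor-like over monocyte-like cells. Genotypes are given side by side and their difference was not tested. In each library 3 members were at least 1.5-fold higher in neutrophil progenitor-like cells, 5 were lower and 2 were neither. Over all genes at 5 CPM or more, 6.72% were higher and 25% lower in KO, and 9.23% higher and 22.4% lower in WT. Gfi1 had a ratio of 4.48 in KO and 3.75 in WT, Cebpe 3.30 and 3.17, and Myb 1.36 and 1.92. Klf4 stood at the other end with -6.14 in KO and -7.18 in WT, next to Irf8 with -4.62 and -4.94 and Irf5 with -4.02 and -4.65. Cebpb (-1.24 in KO, -1.31 in WT) and Cebpa (-1.12 and -0.95) were lower by less, and Spi1 (-0.42 and -0.44) and Cebpd (0.01 and -0.12) were within 1.5-fold. Under the 10 alternatives tried, which changed the filters, weights, clustering and naming, each sign held except that of Cebpd, which lay near 0. The sizes moved more, from -7.26 to -1.78 in KO and from -8.24 to -2.38 in WT for Irf8.

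**Figure D2:**
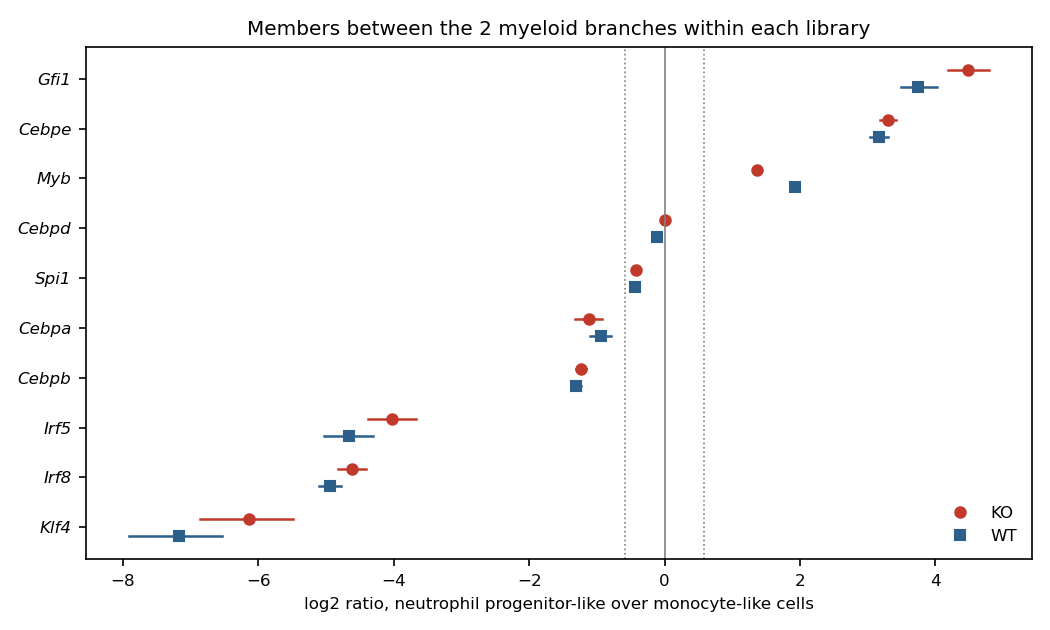
Log2 ratio of CPM, neutrophil progenitor-like over monocyte-like cells, for each member within the KO library (circles) and the WT library (squares), with 95% binomial intervals and dotted lines at 1.5-fold. Gfi1, Cebpe and Myb lie to the right in both libraries, and Klf4, Irf8 and Irf5 far to the left; the Myb ratio is 1.36 in KO and 1.92 in WT.

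KO was set against WT over all cells first. No member passed 1.5-fold in either direction (0 of 10 higher, 0 of 10 lower), where 2.59% of the 10065 genes at 5 CPM or more were higher and 1.47% were lower. The members' median log2 ratio was 0.19, against 0.07 over those genes. Irf5 had the highest ratio, 0.47 (31.2 CPM in KO, 22.5 CPM in WT), then Cebpd with 0.41 (132 and 99.6 CPM) and Cebpb with 0.40 (117 and 88.3 CPM). Gfi1 had the lowest, -0.28 (14.5 and 17.6 CPM). These totals also hold the mix of cell types, since monocyte-like cells were 940 of 4709 KO cells and 742 of 4478 WT cells. Irf5 also differed within clusters. Of 13 clusters at 5 CPM or more its ratio was above 0 in 8 and below 0 in 5. It was past 1.5-fold higher in 4 and lower in 0, with an interval above 0 in 3 and below 0 in 1. In cluster 1 it had 16.7 CPM in KO and 8.86 CPM in WT. Klf4 was level over all cells, at 29.97 CPM in KO and 30.02 CPM in WT, but its ratio was -0.59 when clusters were weighted alike.

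Among neutrophil progenitor-like cells 0 of 8 members at 5 CPM or more were higher and 0 were lower, against 1.5% and 2.96% of 9045 genes. Their median was 0.03, against -0.04 over those genes. The ratios ran from -0.36 for Cebpa to 0.38 for Cebpd. Irf5 and Klf4 were under the minimum. In monocyte-like cells 0 of 9 members were higher and 0 lower, against 1.53% and 1.02% of 9496 genes, with a median of 0.00 against 0.02. The lowest ratio was that of Klf4, -0.43 (-0.51 to -0.36), and the highest that of Myb, 0.36 (0.28 to 0.43). Gfi1 was under the minimum.

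In HSC/MPP-like cells 1 of 7 members at 5 CPM or more was at least 1.5-fold higher in KO and 0 were lower, against 5.59% and 3.06% of 10119 genes. The 1 member was Irf8. The median over the 7 was 0.23, against 0.04 over those genes. Myb followed with 0.41 (0.31 to 0.50; 338 CPM in KO and 255 CPM in WT), then Cebpd with 0.39. Spi1 had a ratio of -0.01 (-0.16 to 0.14), Cebpb -0.07 and Cebpa -0.11. Cebpe, Gfi1 and Klf4 were under the minimum, at 1.82, 3.42 and 2.74 CPM in KO and 1.19, 2.59 and 4.38 CPM in WT.

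**Figure D3:**
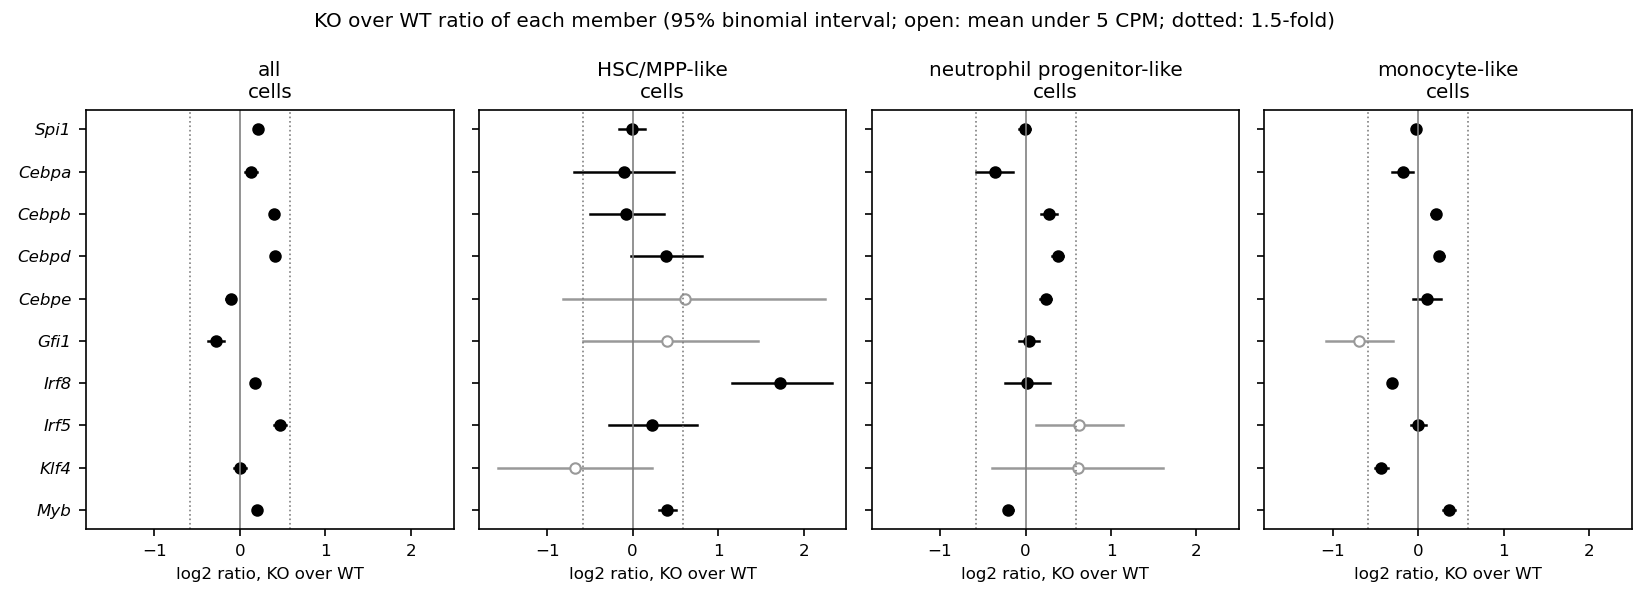
Log2 ratio of CPM, KO over WT, of each member in all cells, HSC/MPP-like, neutrophil progenitor-like and monocyte-like cells, with 95% binomial intervals; open grey points have a mean under 5 CPM and dotted lines mark 1.5-fold. Irf8 in HSC/MPP-like cells, at 1.73, is the only filled point past 1.5-fold.

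Irf8 in HSC/MPP-like cells had 173 UMIs in 525 KO cells and 30 UMIs in 267 WT cells. That is 19.7 CPM (16.9 to 22.9) in KO and 5.97 CPM (4.03 to 8.52) in WT, a log2 ratio of 1.73 (1.16 to 2.34), or 3.31-fold. Megakaryocyte-like cells had 6.17 CPM (4.70 to 7.96) in KO and 7.21 CPM (5.71 to 8.99) in WT. The interval of WT HSC/MPP-like cells overlapped both, and that of KO HSC/MPP-like cells lay above both. A few cells weighed heavily: 3 cells held 33.5% of the KO UMIs and 3 cells 30% of the WT UMIs, and 3 KO cells but 0 WT cells had 10 or more. Without the top 3 cells of each library the ratio was 1.64.

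The share of HSC/MPP-like cells with an Irf8 UMI was 16.8% in KO and 8.99% in WT, at median depths of 15370 and 17990 UMIs. Megakaryocyte-like cells, which should largely lack Irf8, had 11.04% in KO and 13.1% in WT at 20861 and 22864 UMIs. With each cell thinned to 5000 UMIs the HSC/MPP-like shares were 5.52% (Clopper-Pearson 3.73 to 7.84; 29 of 525 cells) in KO and 4.56% (2.38 to 7.83; 12 of 263 cells) in WT, which overlap. At 10000 UMIs they were 9.85% (7.33 to 12.9; 47 of 477 cells) in KO and 3.63% (1.67 to 6.78; 9 of 248 cells) in WT, while megakaryocyte-like cells had 5.33% (3.14 to 8.40) in KO and 6.94% (4.54 to 10.1) in WT. Erythroid cells at 10000 UMIs had 1.19% (0.03 to 6.46) in KO and 3.25% (1.41 to 6.31) in WT. The WT HSC/MPP-like share overlapped the shares of both classes and is read as background. The KO share at 10000 UMIs overlapped the megakaryocyte-like share within counting error but lay above the erythroid shares.

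The ratio depended on how stem-like cells were delimited. It was 0.45 when each library was clustered on its own, which ends the call, and 0.78 when clusters 0 and 8 were taken in as well. It was 0.85 at the finer clustering resolution of 2, 0.96 with the members kept among the clustering genes, 0.97 with stricter cell filters and 1.02 with doublets kept. Of 12 alternatives, 11 kept it past 1.5-fold. At resolution 2 the subcluster led by Tox and Dntt held 338 KO and 83 WT cells and had 27.2 CPM in KO and 6.83 CPM in WT, a ratio of 1.995 (1.07 to 3.09). The subcluster led by Mecom had 9.56 and 5.84 CPM, a ratio of 0.71 (-0.10 to 1.55). A further subcluster, led by the interferon-induced genes Iigp1 and Ifit1, held 58 KO and 4 WT cells. Markers of some other cell types were higher in KO HSC/MPP-like cells too, and those of others were lower. The 5 lymphoid progenitor markers summed to 283 CPM in KO and 107 CPM in WT (0 and 1 of them at 0), the 9 dendritic markers to 487 and 247 CPM (1 and 3 at 0), and the 10 monocyte markers to 149.9 and 92.9 CPM (0 at 0 in either). Neutrophil progenitor (684 and 630 CPM), basophil or mast cell (549 and 483 CPM) and eosinophil markers (7.87 and 5.57 CPM) were higher by less. Erythroid (480 and 567 CPM), megakaryocyte (734.5 and 795 CPM) and B cell markers (26.3 and 33.4 CPM) were lower in KO. Plasma cell (47.0 and 65.8 CPM) and T or NK cell markers (2.74 and 5.17 CPM) were lower as well. The part of any of these cell types in the Irf8 difference was not tested.

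**Figure D4:**
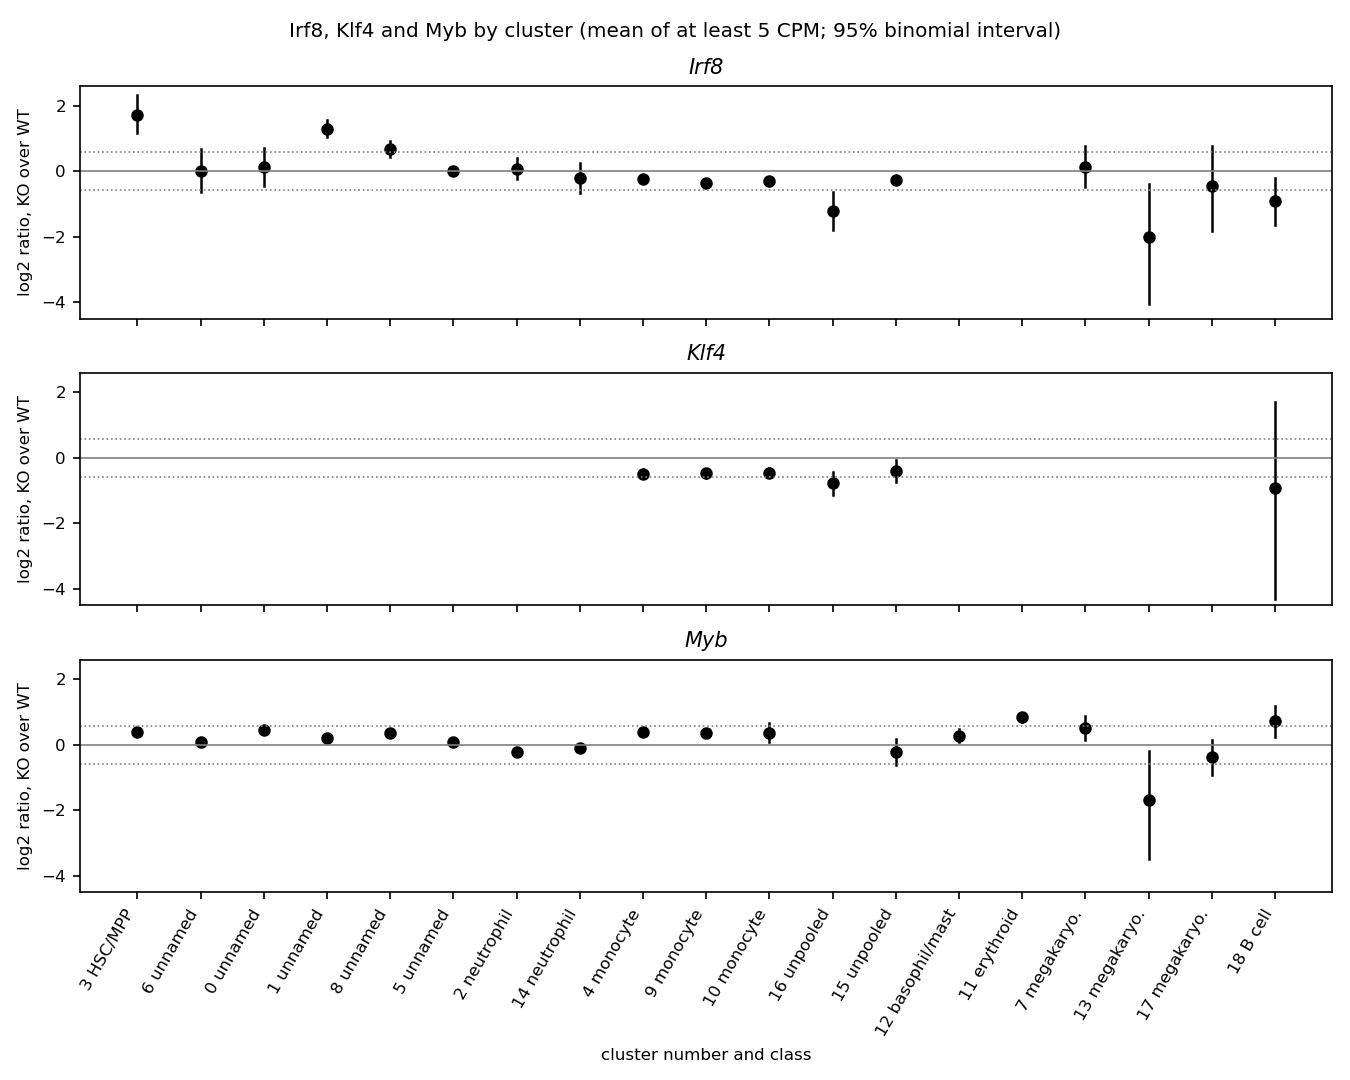
Log2 ratio of CPM, KO over WT, of Irf8, Klf4 and Myb in each cluster with at least 50 cells per library and a mean of at least 5 CPM, with 95% binomial intervals and dotted lines at 1.5-fold. Irf8 is above 1.5-fold in clusters 3, 1 and 8 and below 0 in every monocyte-like cluster, Klf4 lies below 0 in all 6 clusters drawn, and Myb lies above 0 in most.

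Across clusters Irf8 went both ways. It was past 1.5-fold higher in 3 clusters and lower in 3, of 17 at 5 CPM or more. Beside cluster 3, cluster 1 (Cpa3, Flt3) had 56.4 CPM in KO and 23.0 CPM in WT, a ratio of 1.30 (1.05 to 1.56), and the dividing cluster 8 had 42.0 and 26.2 CPM, a ratio of 0.68 (0.44 to 0.92). In cluster 1 166 of 408 KO cells and 101 of 399 WT cells had a UMI, and the top 3 cells held 7.49% of UMIs in KO and 14.7% in WT. Clusters 5 and 6 had ratios of 0.01 and 0.00. Irf8 was lower in KO in the monocyte-like clusters 4, 9 and 10, with ratios of -0.25, -0.36 and -0.29, and in cluster 15, with -0.27. The clusters past 1.5-fold lower were cluster 16 (-1.20, -1.78 to -0.63), the B cell cluster 18 (77.5 CPM in KO and 144.7 CPM in WT; -0.90, -1.63 to -0.21) and the low-UMI megakaryocyte-like cluster 13 (4 UMIs in KO and 16 in WT; -2.01, -4.05 to -0.38). Over monocyte-like cells as a whole the ratio was -0.31 (-0.35 to -0.27).

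Klf4 was lower in KO in each monocyte-like cluster by a like amount. Cluster 4 had 65.2 CPM in KO and 90.6 CPM in WT, cluster 9 had 98.9 and 137 CPM, and cluster 10 had 203 and 276 CPM, for ratios of -0.47, -0.47 and -0.44. Cluster 15 had -0.39 (-0.73 to -0.05), cluster 16 -0.77 (-1.12 to -0.43) and the B cell cluster, with 2 KO and 5 WT UMIs, -0.91 (-4.31 to 1.70). The low-UMI cluster 13 had 0 UMIs in KO and 18 in WT, with the upper bound of its ratio at -2.15. Of the 7 clusters at 5 CPM or more, 6 had an interval below 0 and 0 above. At 5000 UMIs the share of monocyte-like cells with a Klf4 UMI was 33.1% (30.1 to 36.2) in KO and 40.6% (37.0 to 44.2) in WT, while 2 of 379 KO and 1 of 587 WT neutrophil progenitor-like cells had one. Megakaryocyte-like cells had 3 of 390 in KO and 4 of 408 in WT, so the neutrophil shares are read as background.

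Myb was above WT in 13 of 19 clusters, with an interval above 0 in 12 and below 0 in 3. The highest ratio was in erythroid cells, 0.84 (0.71 to 0.97), with 166 CPM in KO and 93.1 CPM in WT. The B cell cluster, with 0.71, was the other one past 1.5-fold higher. Past 1.5-fold lower were the low-UMI cluster 13, with 5 UMIs in KO and 16 in WT (-1.69, -3.49 to -0.18), and cluster 16, with 0 and 6. The monocyte-like clusters had ratios of 0.38, 0.37 and 0.37. Neutrophil progenitor-like cells were lower too, with 375 CPM in KO and 430.5 CPM in WT, a ratio of -0.20 (-0.25 to -0.15), but the ratio there was 0.10 when each library was clustered on its own.

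Pairs of members in the same cell were counted after thinning to 5000 UMIs, over 4510 KO and 4236 WT cells, for 9 pairs. The share with both is set beside the product of the single shares, which is what independent capture would give. Opposed factors met seldom. Gfi1 and Klf4 were together in 2 KO cells (0.0444%, product 0.411%) and 6 WT cells (0.142%, product 0.610%). Gfi1 and Irf8 were together in 33 KO cells (0.732%, product 1.29%) and 32 WT cells (0.755%, product 1.61%). Factors of 1 branch met often. Klf4 and Irf8 were together in 6.05% of KO cells (product 2.33%) and 6.63% of WT cells (product 2.11%), and Gfi1 and Cebpe in 2.33% (product 0.582%) and 3.54% (product 1.04%). Cebpb and Cebpd were together in 16.01% of KO cells (product 8.49%) and 13.03% of WT cells (product 7.18%). Cebpe and Irf8, from opposite branches, were above the product in KO (3.90%, 3.36 to 4.51, product 3.30%) and below it in WT (2.88%, 2.40 to 3.43, product 3.62%). At 10000 UMIs KO had 9.21% (product 7.44%) and WT 7.21% (6.42 to 8.06, product 6.99%), so the WT direction turned with depth.

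The same was counted within 1 population. Gfi1 and Cebpe, counted in neutrophil progenitor-like cells, were together in 22.4% of KO cells and 22.5% of WT cells, with products of 22.2% and 22.1%. In monocyte-like cells Klf4 and Irf8 were together in 26.1% of KO cells and 34.1% of WT cells, with products of 25.7% and 34.1%. Opposed factors were below the product in some populations, but several of the intervals held the product. Gfi1 and Klf4 were together in 0 of 936 KO monocyte-like cells (upper bound 0.393%, product 0.495%). In WT they were together in 4 of 737 monocyte-like cells (0.543%, 0.148 to 1.38, product 1.16%). In KO neutrophil progenitor-like cells they were above the product, in 1 of 379 cells (0.264%, 0.00668 to 1.46, product 0.167%). At 5000 UMIs Gfi1 and Irf8 were together in 0.681% of WT neutrophil progenitor-like cells (0.186 to 1.735, product 1.33%). KO ones had 1.055% (0.288 to 2.68, product 1.59%). At 10000 UMIs the pair was in 2.57% of WT neutrophil progenitor-like cells (1.45 to 4.201, product 4.66%), and in 3.98% of KO ones (2.24 to 6.48, product 4.64%).

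**Figure D5:**
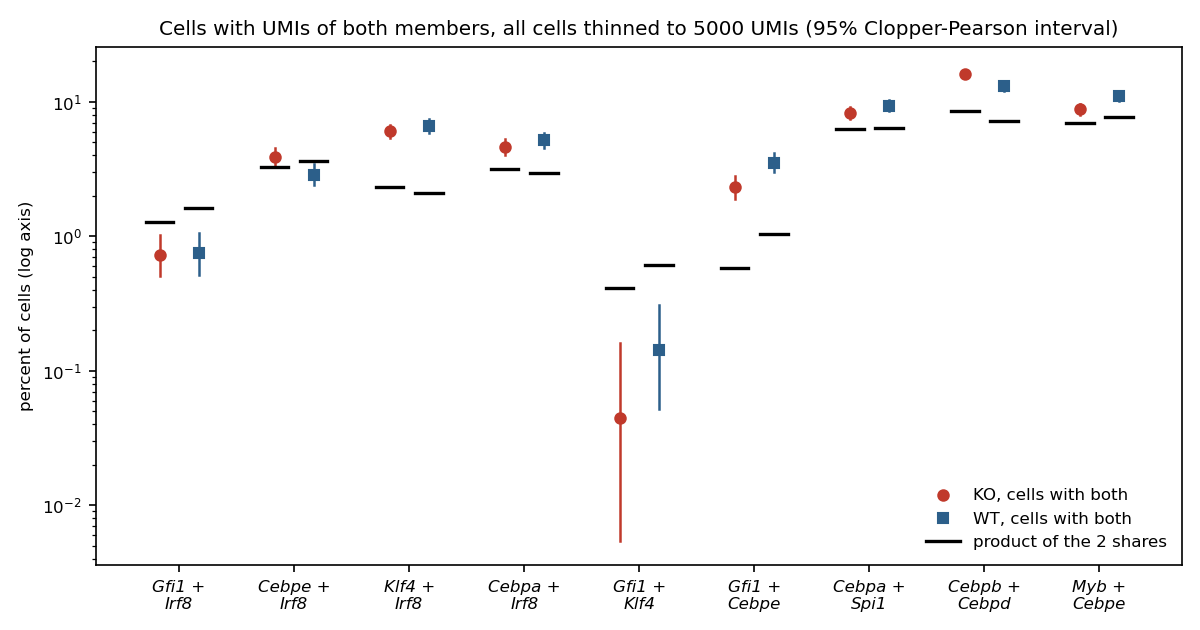
Percent of cells with UMIs of both members of a pair on a log axis, over all cells thinned to 5000 UMIs, with circles for KO, squares for WT, bars for the 95% Clopper-Pearson interval and black lines for the product of the single shares. Gfi1 with Klf4 and Gfi1 with Irf8 lie below the product in both libraries, and Klf4 with Irf8, Gfi1 with Cebpe and Cebpb with Cebpd lie above it.

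Genes known to depend on the members were followed at 10 CPM or more, in lists chosen with earlier results of these data known. In neutrophil progenitor-like cells 4 of 5 measured C/EBPε-dependent genes were at least 1.5-fold higher in KO, where 1.09% of genes were, with a median of 1.89 against -0.04. Ltf (lactoferrin) had 82.5 CPM in KO and 11.03 CPM in WT, Ngp (neutrophilic granule protein) 318 and 46.8 CPM, Lcn2 (lipocalin 2) 442 and 119 CPM, and Camp (cathelicidin) 978 and 307 CPM. Their ratios of 2.90, 2.77, 1.89 and 1.67 stood beside a Cebpe ratio of 0.24. These 4 genes were also among the markers that named the class, whose 12 markers summed to 69680 CPM in KO and 48730 CPM in WT, so the count describes the cells and does not stand apart from their naming. The fifth gene, Ltb4r1, was not a class marker. It had a ratio of -0.03 (-0.12 to 0.07) in cluster 2 and 0.415 (0.22 to 0.61) in cluster 14. Mmp8, Mmp9, Itgb2l and Cd177, under the minimum in the class, had ratios from 1.11 to 3.30 in cluster 2 on fewer UMIs. In cluster 2 alone the ratios of Ltf, Ngp, Lcn2 and Camp were 3.01, 2.86, 1.98 and 1.61, and in cluster 14 Camp had 430 CPM in KO and 15.02 CPM in WT. At resolution 2 most UMIs of Ltf, Ngp, Lcn2 and Camp lay in 1 finer cluster of 173 KO and 214 WT cells, where cluster 2 held 295 and 502 cells. Ltf had 1054 UMIs there in KO and 210 in WT, against 1056 and 214 in cluster 2. Within that finer cluster the ratios of Ltf, Ngp, Lcn2 and Camp were 2.52, 2.35, 1.90 and 1.09. The genotypes thus differed in its share of the class too, and the part of that share in the ratios was not tested. In monocyte-like cells 1 of 4 was higher, Lcn2 with 1.06, where 1.24% of genes were.

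Of the IRF8-dependent genes, 3 of 5 measured in HSC/MPP-like cells were higher in KO, where 4.08% of genes were. The MHC class II genes Cd74 (123 CPM in KO, 44.7 CPM in WT) and H2-Aa (117 and 57.1 CPM) had ratios of 1.45 and 1.04, and Ctss (cathepsin S) had 1.00. Cd74 and H2-Aa also led cluster 15, and both are among the 9 dendritic markers, so the dendritic sum in the same cells is not a separate observation. That sum was 487 CPM in KO and 247 CPM in WT. Ctss is among the monocyte markers. The part of dendritic or monocyte cells in this count was not tested. In neutrophil progenitor-like cells 1 of 4 was higher, Cybb (a subunit of the phagocyte oxidase) with a ratio of 1.09, where 1.09% of genes were. In monocyte-like cells 0 of 9 were, with a median of 0.10, where 1.24% of genes were. Over all cells 2 of 9 were higher and 0 lower, where 2.06% of genes were higher and 1.24% lower. Of the genes dependent on PU.1 and C/EBPα, 4 of 10 were higher in HSC/MPP-like cells (Itgam 1.08, Ctsg 1.03, Mpo 1.02 and Il6ra 0.76), where 4.08% of genes were. The median of the 10 was -0.01. The count was 2 of 14 in neutrophil progenitor-like cells (Cybb 1.09 and Lyz2 0.85), where 1.09% of genes were higher. It was 0 of 14 in monocyte-like cells, where 1.24% of genes were higher.

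Of the genes that GFI1 is known to repress, 1 of 6 was higher and 1 lower in neutrophil progenitor-like cells, Id2 with 1.42 and Meis1 with -1.41, where 1.09% of genes were higher and 1.59% lower. Id2, an inhibitor of basic helix-loop-helix factors, had 33.0 CPM in KO and 12.3 CPM in WT. In monocyte-like cells 1 of 7 was higher (Id2, 0.59) and 1 lower (Egr1, -1.15), where 1.24% and 0.643% of genes were. Of 6 measured in HSC/MPP-like cells 1 was higher (Irf8 itself), where 4.08% of genes were. Of the MYB-dependent genes, 0 of 7 were higher and 2 lower in neutrophil progenitor-like cells (Bcl2 -0.78 and Cd34 -0.67), where 1.59% of genes were lower. The 10 HSC/MPP markers summed to 156 CPM in KO and 257 CPM in WT neutrophil progenitor-like cells (0 at 0 in either). Meis1 and Cd34 are among these markers and Bcl2 is not, so the lower sum in KO does not stand apart from those genes. The part of stem-like cells in these counts was not tested. In HSC/MPP-like cells 1 of 9 was higher (Mpo) and 1 lower (Gata3, -0.85), where 4.08% and 2.24% of genes were. In monocyte-like cells 0 of 7 moved past 1.5-fold, where 1.24% of genes were higher and 0.643% lower.

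Relatives of the members were followed too. Of 16 other C/EBP, IRF, KLF, GFI and MYB family genes in HSC/MPP-like cells, 3 were higher, where 4.08% of genes were, among them Irf7 (26.5 CPM in KO and 10.3 CPM in WT, ratio 1.36) and Irf1 (84.6 and 52.3 CPM, 0.69), both induced by interferon. Another 2 were lower, Klf2 (55.5 and 99.2 CPM, -0.84) and Mybl2 (10.6 and 16.9 CPM, -0.67), where 2.24% of genes were lower. In monocyte-like cells 2 of 14 were higher, Irf1 (0.76) and Irf7 (0.66), where 1.24% of genes were. In neutrophil progenitor-like cells 1 of 12 was higher, Klf2 (0.62), where 1.09% of genes were. Of other myeloid fate factors, 2 of 11 were higher in neutrophil progenitor-like cells, Id2 and Id1 (1.11), where 1.09% of genes were. In monocyte-like cells 3 of 15 were higher, with Zfp36l1 at 1.65 (36.2 CPM in KO and 11.6 CPM in WT) and Id1 at 0.72, where 1.24% of genes were. Another 2 were lower there, Egr1 (-1.15) and Nr4a1 (-0.70), where 0.643% of genes were lower. In HSC/MPP-like cells 1 of 13 was higher (Zfp36l1, 0.69) and 2 lower (Nr4a1 -0.96 and Tfec -0.61), where 4.08% and 2.24% of genes were. Of the cofactors and regulators of the members, such as the demethylase gene Kdm1a, 0 of 14 in HSC/MPP-like cells and 0 of 13 in each myeloid branch passed 1.5-fold. Over all genes 4.08% were higher and 2.24% lower in HSC/MPP-like cells. The shares were 1.09% and 1.59% in neutrophil progenitor-like cells and 1.24% and 0.643% in monocyte-like cells. At such shares a count of 0 among so few genes says little.

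The genes whose levels followed each member most closely were ranked by Pearson's r of log2(CPM + 1) over the 19 clusters, taking the lower of the libraries' values, among 6758 genes at 20 CPM or more. Clusters share their library and the genes that formed them, so r is a description. Klf4 followed Psap (r = 0.98 in both libraries), Irf5 followed Rbm47 (0.96 in both), Irf8 followed Apba1 (0.93 in KO and 0.95 in WT), and Spi1 followed Tm6sf1 (0.96 and 0.98). Cebpa followed Ccl9 (0.96 in both), Cebpb followed Rhog (0.93 and 0.91), and Cebpd followed Atp8b4 (0.95 and 0.94). Cebpe followed Alas1 (0.93 and 0.91) and the proteinase gene Prtn3 (0.91 in both). Gfi1 had the lowest best match, Sun2 (0.85 and 0.83), and Myb followed Myc (0.90 and 0.88). Among the members themselves, Irf5 and Irf8 had r of 0.86 in KO and 0.88 in WT, Irf5 and Klf4 0.85 and 0.89, and Gfi1 and Cebpe 0.71 and 0.82. Klf4 and Myb ran opposite, at -0.39 in KO and -0.47 in WT.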

How the data were processed

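Single-cell RNA-seq libraries of GFP+ Lin- mouse bone marrow cells, 1 from KO and 1 from WT donor cells, were analysed. The authors deposited UMI counts per gene and barcode, made with Cell Ranger 6.0.2 per the file headers; per the submitters' processing notes the tool was Cell Ranger 3.0.1 and the genome GRCm38. No source used here names the annotation. Gene positions were looked up in GENCODE M21, where 32158 of the 32285 gene IDs were found.

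From these counts, barcodes with at least 500 genes and at most 10% mitochondrial UMIs were kept (4930 KO and 4702 WT). Scrublet scores were used to remove 221 KO and 224 WT barcodes at an assumed doublet rate of 0.8% per 1000 barcodes, because Scrublet's own threshold marked 89 and 5. Cells were clustered together in scanpy 1.11.5 (2000 variable genes without the 10 members, 30 components, 15 neighbours, Leiden resolution 1). A cluster was named when at least 50% of a class's markers, and at least 3, were past a log2 fold of 1 in at least 25% of its cells. This naming rule was revised after clusters and marker tables had been seen. The members and gene lists were chosen with earlier results of these data known.

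UMIs were summed per library and population and given as CPM with exact 95% Poisson intervals; ratios of KO over WT carry exact binomial intervals. With 1 library per genotype no test across samples was possible, and a call means a 1.5-fold difference at a mean of 5 CPM (10 CPM for lists). Shares of cells with a UMI were compared after thinning each cell to 5000 UMIs, leaving out shallower cells. All 10 members are described; from each list at most 4 genes past 1.5-fold, the largest first, are named, and for each member the genes most alike. Counts were also simulated from the Poisson model that the intervals assume. There 95.2 to 95.7% of the intervals of unchanged genes covered the ratio used, and 91 to 99% for a log2 change of 0.3. The simulation leaves out the gathering of UMIs in a few cells and differences between animals, so it checks only the calculation. Alternatives covered the scaling (edgeR 4.0.16 TMM and median-of-ratios factors), filters, doublets, clustering, naming, minimum CPM and depth.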

Additional observations from a re-analysis of the deposited data

Results flagged for a closer look

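The direction of KO over WT differed between populations for 2 members. Irf8 had a log2 ratio of 1.725 in HSC/MPP-like cells and -0.306 in monocyte-like cells. Myb had a log2 ratio of 0.406 in the HSC/MPP-like and 0.357 in the monocyte-like population, but -0.201 in neutrophil progenitor-like cells. With 1 library per genotype these differences between populations were not tested. The Irf8 ratio in monocyte-like cells was below 0 in all 13 alternatives, from -0.48 to -0.21, and the ratio in HSC/MPP-like cells was above 0 in all 12, from 0.45 to 1.73. The Myb ratio in neutrophil progenitor-like cells was below 0 in 12 of 13 alternatives.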

How the results depend on the processing

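No paired analysis was possible because there is 1 library per genotype and the labels give no replicate numbers. Of 450 recomputed KO over WT ratios, 353 stayed within counting error of the reported value and 97 moved. Only 1 ratio had been called, Irf8 in HSC/MPP-like cells, and it kept its sign. Some ratios that were not called changed sign. Of 200 recomputed neutrophil over monocyte ratios 100 moved. With cells thinned to 10000 UMIs, 50 of 60 single shares and 50 of 72 pair shares moved. Over all cells, where 0 members were lower, 1 was with clusters weighted alike (Klf4), and the signs of Spi1, Cebpe, Gfi1, Irf8 and Irf5 changed. In HSC/MPP-like cells 1 member was higher; 0 were when each library was clustered on its own or at a minimum of 20 CPM, and 2 without a minimum. There 0 were lower, but 1 was at Leiden resolution 2, with members kept among clustering genes, with each library clustered on its own and without a minimum. In neutrophil progenitor-like cells 0 were higher, but 1 was with doublets kept or with members kept among clustering genes and 2 without a minimum; 1 was lower with each library clustered on its own (Irf8, -1.42). In monocyte-like cells, each library clustered on its own gave 1 higher (Myb, 0.93) and 1 lower (Klf4, -0.80), and 1 was lower with 1000 genes and 5% mitochondrial as filters (Gfi1, -1.03) and without a minimum. The cause of these moves was not tested. Leaving out the 3 cells with most UMIs and the other naming rules were chosen after seeing the data. Other scalings shifted the all-cell ratios by -0.07 (TMM) and -0.09 (median of ratios). Depth limits Cebpe, Gfi1 and Klf4 in stem-like cells.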
